A study of Mus musculus with 14 samples.

Results

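Transcripts of the ATP-binding cassette (ABC) transporters were followed in haematopoietic stem cells (HSCs), which reside in bone marrow and give rise to every type of blood cell. Members were the gene labels that begin with Abc, a letter from a to g and a digit. Of 52 such labels, 45 were above 0 in at least 1 library, among 18207 genes above 0 in the series. The other 7 (Abca12, Abca14, Abca15, Abcb5, Abcc6, Abcc12 and Abcg5) were listed at 0 in every library. Of the 45 members, 24 reached the mean of 1 RPKM (reads scaled by the length of the gene model in kilobases and by the library's total) needed for the comparison on RPKM. The 33 with a mean of 10 recovered reads or more entered a comparison on reads. The remaining 12 were too low for either.

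The cells came from bone marrow of C57BL/6 mice and were sorted into HSCs with high cytoplasmic calcium, [Ca2+]high (here calcium-high), and those with low calcium, [Ca2+]low (here calcium-low). There were 7 numbered libraries of 100 sorted cells for either group. No genotype, treatment or age is given in the labels, and neither the calcium indicator, the sort gates nor the number of mice. P-values therefore measure only the spread between these libraries, which may be technical. In a library of bulk cells, fewer cells with a transcript and less of that transcript per cell cannot be told apart.

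ABC transporters couple the binding and hydrolysis of ATP to the movement of a substrate across a membrane. Abcb1, Abcg2 and several Abcc proteins export drugs, xenobiotics and fluorescent dyes from the cell. HSCs are known for this efflux: export of a DNA-binding dye by Abcg2 defines the side population of bone marrow, and Abcb1 exports rhodamine and the ester forms of calcium indicators before these are cleaved inside the cell. Other members move sterols and phospholipids (most of the Abca family and Abcg1), metabolites of mitochondria (such as Abcb8 and Abcb10) or peroxisomal fatty acids (such as Abcd3). Abce1 and the Abcf proteins have no membrane part and act on ribosomes.

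Of the efflux pumps, Abcb1a had more transcript in calcium-high HSCs in all 7 same-numbered pairs. Over the 9921 genes tested on RPKM, 2.49% were higher in every pair. Abcb1a, which averaged 0.555 RPKM, lies outside that set, and no such share was counted for genes at its level. The paralogue Abcb1b, which lies beside it on chromosome 5 and encodes the other mouse P-glycoprotein, passed in none of the fits on RPKM or on reads. The promoters of these genes and of Abcg3, a relative of Abcg2 that was also higher, are shown because they belong to the members on which the comparison turns. Each is a RefSeq window of 300 bases (GRCm38.p6), 250 bases before to 50 after the annotated start, given 5′ to 3′ on the strand of the gene. Capitals mark matches on either strand to the TATA box (TATAAA), the GC box (GGGCGG), the CCAAT box, the cyclic AMP response element (TGACGTCA), the AP-1 site (TGAGTCA) and the core GCGTG. Overlapping matches were counted separately.
Abcb1a, chr5:8566841-8567140, plus strand: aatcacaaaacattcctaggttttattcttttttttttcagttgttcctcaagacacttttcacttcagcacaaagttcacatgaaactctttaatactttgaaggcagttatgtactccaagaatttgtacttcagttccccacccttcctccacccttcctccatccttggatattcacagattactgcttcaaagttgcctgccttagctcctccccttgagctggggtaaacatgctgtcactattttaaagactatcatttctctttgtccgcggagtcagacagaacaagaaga
Abcb1b, chr5:8797897-8798196, plus strand: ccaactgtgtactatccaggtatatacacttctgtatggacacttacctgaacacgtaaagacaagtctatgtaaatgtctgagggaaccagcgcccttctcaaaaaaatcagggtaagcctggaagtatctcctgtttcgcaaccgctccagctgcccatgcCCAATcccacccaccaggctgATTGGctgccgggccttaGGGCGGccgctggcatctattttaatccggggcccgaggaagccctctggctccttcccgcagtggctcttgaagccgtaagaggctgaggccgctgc
Abcg3, chr5:104982668-104982967, minus strand: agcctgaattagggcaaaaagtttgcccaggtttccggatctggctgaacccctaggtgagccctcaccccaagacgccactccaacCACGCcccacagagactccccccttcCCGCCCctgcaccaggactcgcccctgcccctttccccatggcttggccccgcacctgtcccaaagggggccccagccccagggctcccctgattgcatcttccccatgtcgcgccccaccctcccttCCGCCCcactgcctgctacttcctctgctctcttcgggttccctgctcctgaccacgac

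The Abcb1a window held 0 of the 6 motifs and 40.3% G or C, against a median of 52.7% over 32851 RefSeq windows of the same length. The Abcb1b window held 2 CCAAT boxes and 1 GC box (GGGCGG), and the Abcg3 window 2 GC boxes and 1 GCGTG, a core bound by the aryl hydrocarbon receptor and hypoxia-inducible factors. Of the 45 windows of 38 ABC genes, 46.7% held the GC box, against 35.7% of all windows. The CCAAT box was in 35.6% against 37.4%, the core GCGTG in 35.6% against 32.4% and the TATA box in 15.6% against 13.6%. The cyclic AMP response element was in 4.44% against 1.79% and the AP-1 site in 0% against 5.20%. A window with no match says only that these letters are not in it. The RefSeq start of Abcb1a lies 93.0 kb upstream of the start of the gene in the GENCODE annotation of the same genome (chromosome 5, 8660077 to 8748575). Which start these cells used cannot be read from values per gene.

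The efflux pumps differed widely in level (RPKM, which is per length). Abcc1, an exporter of glutathione conjugates, was highest, with 15.7 ± 2.36 RPKM (SD) over the 7 calcium-high and 15.7 ± 3.05 RPKM over the 7 calcium-low libraries. Means below are given in the same form. Abcg2 followed at 6.70 ± 1.40 against 5.88 ± 2.39 RPKM, and Abcc4, an exporter of cyclic nucleotides and drugs, at 3.82 ± 0.651 against 3.76 ± 0.340 RPKM. Abcc5, a relative of Abcc4, and Abcb1b were next, at 3.17 ± 0.334 against 2.65 ± 0.554 RPKM and 2.83 ± 0.604 against 3.04 ± 0.638 RPKM. Abcc10 was at 1.89 ± 0.662 against 1.49 ± 0.584 RPKM, Abcb1a at 0.796 ± 0.341 against 0.315 ± 0.275 RPKM and Abcc3 at 0.487 ± 0.225 against 0.461 ± 0.242 RPKM. Of these neighbours, Abcc1 stood above Abcg2 in every library, while Abcb1b and Abcc5 lay within each other's spread, as did Abcb1a and Abcc3 in calcium-low libraries. Abcc2 was near the detection limit, with 33 reads in all 14 libraries. Summed over the 9 pumps above 0, the level was 35.4 ± 2.83 RPKM in calcium-high against 33.3 ± 3.13 RPKM in calcium-low libraries, higher in 5 of 7 pairs.

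**Figure D1:**
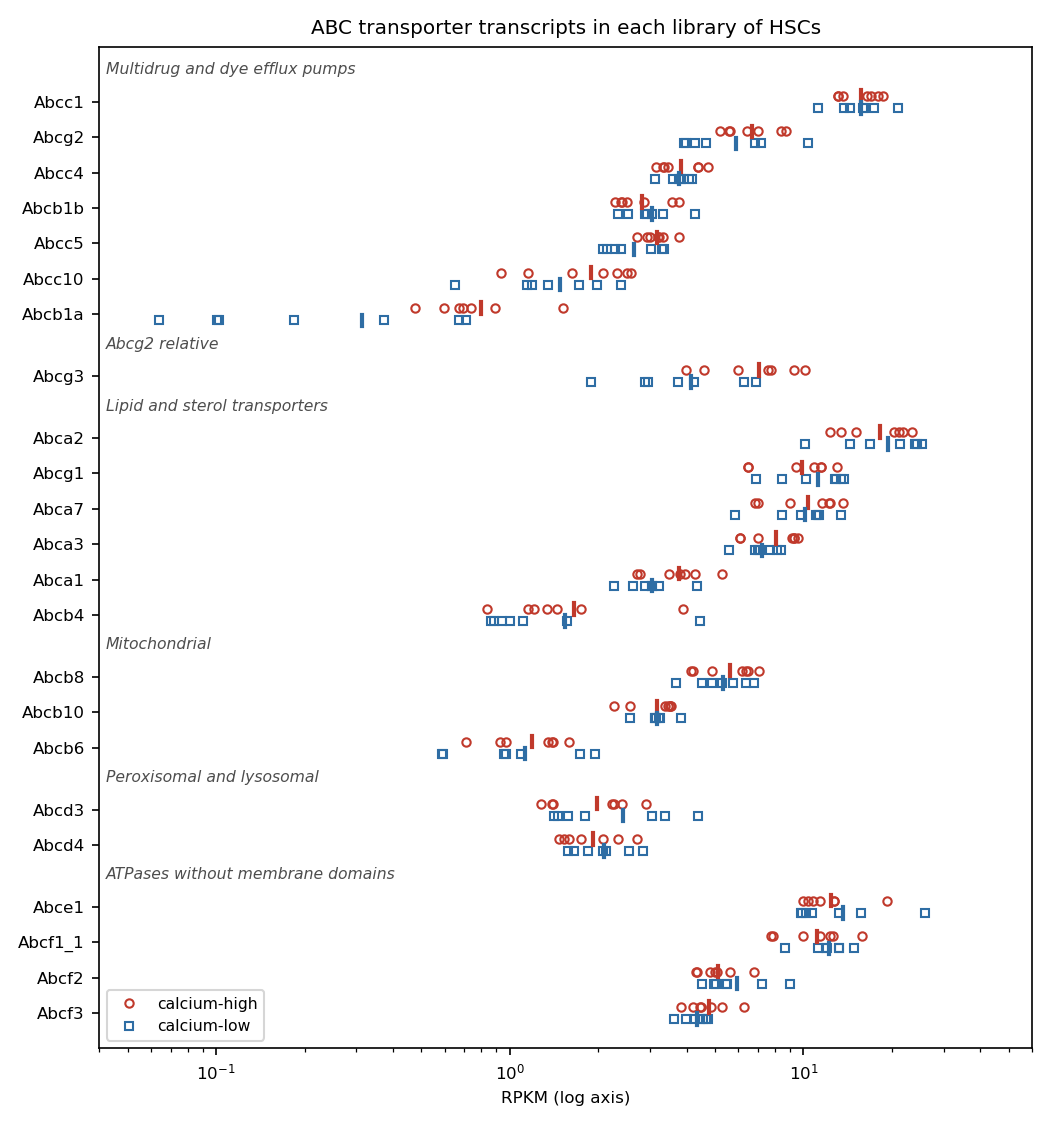
RPKM on a log axis of 22 members with a mean of 1 RPKM or more and of Abcb1a, by role; circles are the 7 calcium-high and squares the 7 calcium-low libraries, and bars mark the group means. Abcb1a spans 0.476 to 1.51 RPKM in calcium-high and 0.0641 to 0.708 RPKM in calcium-low libraries, and the groups of every pump shown overlap in part.

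Abcb1a was at 0.887, 1.51, 0.736, 0.672, 0.476, 0.598 and 0.691 RPKM in calcium-high libraries 1 to 7, against 0.669, 0.708, 0.374, 0.102, 0.101, 0.184 and 0.0641 RPKM in calcium-low libraries 1 to 7. The groups overlapped only through calcium-low replicates 1 and 2, and every calcium-high library lay above the calcium-low library of its number. These values rest on 81 to 133 reads per calcium-high and 13 to 60 reads per calcium-low library. A count of 0 would have allowed up to 0.0148 to 0.0385 RPKM (3 reads, counting error only), below every value of Abcb1a.

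Fitted to reads by limma-voom with weights for library quality, Abcb1a had a log2 fold change of 2.37 ± 0.38 (SE; adjusted p = 0.00122), and 1.59 ± 0.27 with the replicate number as a block (adjusted p = 0.00339). Without the library weights these were 2.01 ± 0.43 (adjusted p = 0.0475) and 1.65 ± 0.29 (adjusted p = 0.00627, limma-voom). Without the block the weights ran from 0.229 to 1.15 in replicates 1 to 3 and from 0.761 to 2.16 in replicates 4 to 7. With the block they ran from 0.607 to 2.13 and from 0.667 to 1.36. Abcb1a passed on reads without the block in each of 14 fits that left out 1 library, with adjusted p from 5.11e-04 to 0.0189 in limma-voom. On log2(RPKM + 1) without a filter on low values, limma gave 0.46 ± 0.14 (adjusted p = 0.312) and with the block an adjusted p of 0.126, and it did not pass. Without pair 3 and with the block it passed on that scale too (limma adjusted p = 0.040). That scale understates folds of a gene below 1 RPKM, but with a pseudocount of 0.1 and the block the adjusted p was still 0.121 (limma). In replicates 4 to 7 alone it passed on both scales (limma on log2(RPKM + 1) without a filter, adjusted p = 0.00458; limma-voom on reads, log2 fold change 2.50, adjusted p = 0.00101). In replicates 1 to 3 alone it did not (adjusted p = 0.665, log2 fold change 1.07). The difference between these effects was 1.43 ± 0.57 on the log2 scale and did not pass (adjusted p = 0.604, limma-voom).

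Abcb1b was at 3.76, 3.58, 2.51, 2.41, 2.38, 2.29 and 2.86 RPKM in calcium-high libraries, against 3.05, 4.29, 2.52, 2.33, 3.32, 2.93 and 2.88 RPKM in calcium-low libraries. The groups overlapped throughout, with 2 pairs higher and 5 lower. On reads its log2 fold change was -0.17 without the block (limma-voom, 95% interval -0.50 to 0.16, adjusted p = 0.612). Abcb1a made up 16.6% to 29.7% of the summed RPKM of both genes in calcium-high libraries. In calcium-low libraries it made up 12.9% to 18.0% in replicates 1 to 3 but 2.18% to 5.91% in replicates 4 to 7. The log2 ratio of Abcb1a to Abcb1b was -1.89 ± 0.34 in calcium-high and -3.80 ± 1.296 in calcium-low libraries. It was higher in 7 of 7 pairs (exact two-sided permutation test over 14 libraries, p = 0.00117; over pairs, p = 0.0156, the smallest that 7 pairs allow). This ratio was chosen after its values were seen, and Abcb1a itself was higher in all 7 pairs. These p-values are therefore descriptive and add no separate support to the result for Abcb1a.

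**Figure D2:**
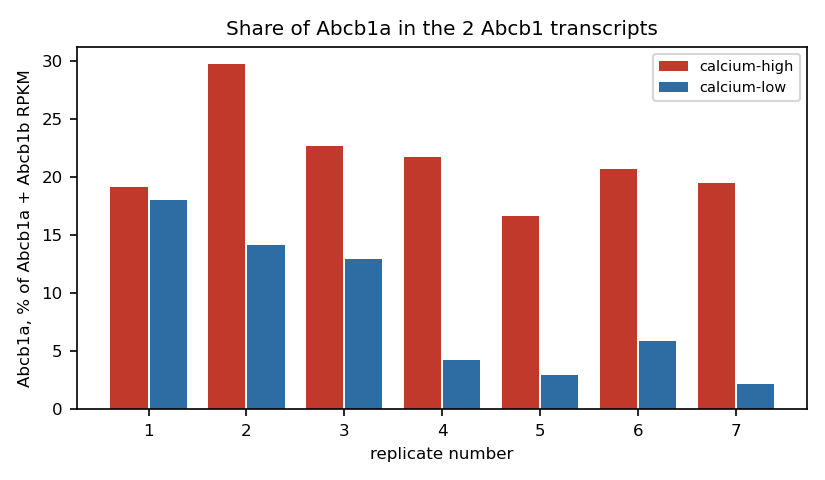
Abcb1a as a percentage of the summed RPKM of Abcb1a and Abcb1b in each library, by replicate number; left bars are calcium-high and right bars calcium-low libraries. The calcium-high bar is the taller in all 7 pairs, and calcium-low replicates 4 to 7 lie between 2.18% and 5.91%.

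Counting limits the values of Abcb1a and Abcb1b. Of the 31-base words in Abcb1a transcripts (GENCODE), 21.7% also occur in Abcb1b transcripts and 28.2% in some other gene, so reads could be split between the paralogues or lost. The exons of Abcb1a overlap Gm42686 on the opposite strand over 10.1% of their length. The library chemistry in the labels names no strand-marking step, so reads of the antisense gene cannot be told apart from those of Abcb1a. Their part in the result was not tested.

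Abcg2 was at 8.38, 8.73, 5.60, 5.56, 5.21, 6.42 and 7.01 RPKM in calcium-high libraries, against 10.4, 6.81, 7.15, 3.97, 4.65, 3.92 and 4.29 RPKM in calcium-low libraries. It was higher in pair 2 and in all 4 pairs from 4 to 7, and lower in pairs 1 and 3. The log2 fold change was 0.21 ± 0.18 without the block (limma on log2(RPKM + 1), adjusted p = 0.974). On reads it was 0.45 ± 0.16 (adjusted p = 0.110, limma-voom) and 0.36 ± 0.10 with the block (adjusted p = 0.0381), where it passed. With the block it did not pass without library weights (adjusted p = 0.0915, limma-voom) or under median-of-ratios scaling (adjusted p = 0.0627). Without the block it passed when calcium-low replicate 1 or 2 was left out (adjusted p = 0.0373 and 0.0486, limma-voom). In replicates 4 to 7 alone it passed on reads (log2 fold change 0.45, adjusted p = 0.0243).

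Abcg3 had the smallest p on log2(RPKM + 1) of the 24 members with a mean of 1 RPKM or more. It lies on chromosome 5 (104935057 to 104982718) and is known from rodents. It was at 9.26, 10.1, 3.99, 5.98, 4.59, 7.59 and 7.78 RPKM in calcium-high libraries, against 6.90, 6.25, 4.24, 3.74, 2.89, 1.89 and 2.96 RPKM in calcium-low libraries. Pair 3 was the exception to a higher value in calcium-high HSCs, and the groups overlapped. On log2(RPKM + 1) its log2 fold change was 0.67 ± 0.23 without the block (limma, adjusted p = 0.461) and 0.67 ± 0.16 with it (adjusted p = 0.0729), and it did not pass. With the block and without pair 3 it passed (limma adjusted p = 0.00943), and also with the block under median-of-ratios scaling (adjusted p = 0.0235). On reads it was 1.08 ± 0.21 (limma-voom adjusted p = 0.00498) and 0.90 ± 0.13 with the block (adjusted p = 0.00155). Without library weights the adjusted p was 0.141, and 0.00524 with the block (limma-voom). None of its 31-base words occur in transcripts of another gene, Abcg2 included.

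The levels of Abcg3 also moved with a sex-linked measure. In replicates 1 and 2 of both groups 4 Y-linked genes summed to 1298 to 1638 reads per library, and to 0 to 4 reads in replicates 3 to 7. Abcg3 was at 6.25 to 10.1 RPKM in the libraries with Y-linked reads and at 1.89 to 7.78 RPKM in the others. Abcb1a was at 0.669 to 1.51 against 0.0641 to 0.736 RPKM, and Abcg2 at 6.81 to 10.4 against 3.92 to 7.15 RPKM. Same-numbered libraries had the same status. The part of sex in these levels was not tested.

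**Figure D3:**
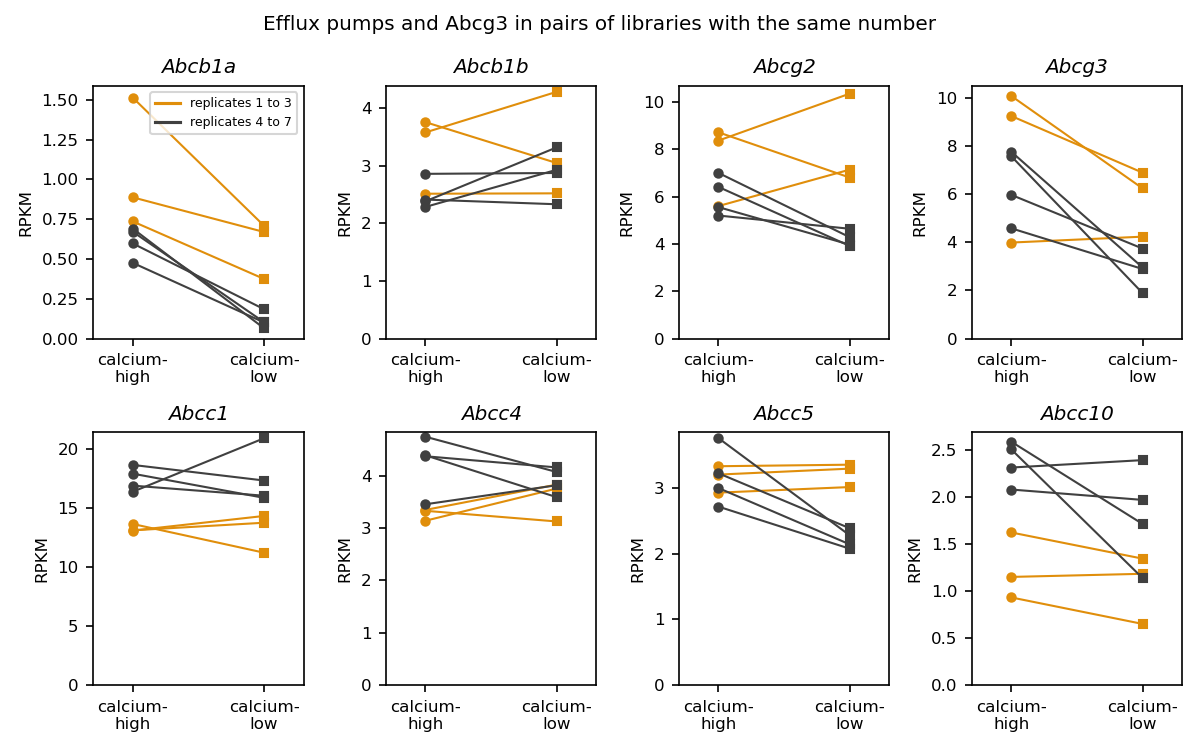
RPKM of 7 efflux pumps and Abcg3 in calcium-high (left) and calcium-low (right) libraries, with lines joining same-numbered libraries (orange for replicates 1 to 3, grey for 4 to 7); axes start at 0. All 7 lines of Abcb1a fall towards calcium-low, as do 6 of 7 for Abcg3, while those of Abcb1b and Abcc1 run both ways.

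Abcc5, an exporter of cyclic nucleotides and nucleotide analogues, was at 3.33, 3.204, 2.93, 3.23, 3.0, 3.76 and 2.72 RPKM in calcium-high libraries, against 3.36, 3.29, 3.01, 2.39, 2.14, 2.28 and 2.08 RPKM in calcium-low libraries. It was slightly lower in pairs 1 to 3 and higher in pairs 4 to 7. On reads it passed without the block (log2 fold change 0.43 ± 0.11, adjusted p = 0.0234, limma-voom) and with it (0.32 ± 0.08, adjusted p = 0.0199). Without library weights it passed with the block (adjusted p = 0.0161) and not without it (adjusted p = 0.259, limma-voom). On log2(RPKM + 1) it did not pass (limma adjusted p = 0.809, and 0.381 with the block). In replicates 4 to 7 alone it passed on log2(RPKM + 1) (limma adjusted p = 0.0375) and on reads (limma-voom adjusted p = 0.00716). The call on reads without the block was lost without calcium-high replicate 6 (limma-voom adjusted p = 0.0719), and without calcium-low replicate 4, 5, 6 or 7 (0.125, 0.121, 0.0766 and 0.122).

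Abcc1 was at 13.1, 13.1, 13.7, 18.7, 16.9, 16.4 and 17.9 RPKM in calcium-high libraries, against 13.8, 14.3, 11.2, 17.4, 16.1, 20.9 and 15.9 RPKM in calcium-low libraries. Its log2 fold change on log2(RPKM + 1) was 0.01, with a 95% interval of -0.19 to 0.21 with the block (limma adjusted p = 0.976). Abcc4 was at 3.35, 3.14, 3.33, 4.37, 4.39, 4.74 and 3.45 RPKM in calcium-high libraries, against 3.83, 3.75, 3.12, 4.16, 3.59, 4.07 and 3.82 RPKM in calcium-low libraries. Its interval with the block was -0.18 to 0.20 (limma adjusted p = 0.974). The calcium-high libraries of Abcc1 lay within the range of the calcium-low ones, while calcium-high replicates 4, 5 and 6 of Abcc4 lay above all calcium-low libraries. Each gene had 4 pairs higher and 3 lower.

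Abcc10, a broad drug exporter, was at 1.63, 1.15, 0.934, 2.59, 2.32, 2.08 and 2.51 RPKM in calcium-high libraries, against 1.35, 1.19, 0.651, 1.72, 2.40, 1.97 and 1.14 RPKM in calcium-low libraries. It was higher in 5 of 7 pairs and did not pass (log2 fold change 0.22 ± 0.11 with the block, limma adjusted p = 0.416). Abcc3, a pump of bile acids and glucuronides, had 8 to 149 reads per library and a log2 fold change on reads of 0.08 (limma-voom, 95% interval -0.57 to 0.73).

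Among the sterol and lipid transporters, Abca1, which loads cholesterol onto apolipoprotein A-I, was at 5.29, 3.47, 2.72, 3.94, 2.78, 3.81 and 4.29 RPKM in calcium-high libraries, against 4.32, 2.89, 3.21, 3.06, 2.63, 2.26 and 3.05 RPKM in calcium-low libraries. It was higher in 6 of 7 pairs with overlapping groups. On reads with the block it passed (log2 fold change 0.37 ± 0.08, adjusted p = 0.0128, limma-voom), and without the block it did not (adjusted p = 0.0741). On log2(RPKM + 1) the adjusted p was 0.335 with the block (limma).

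Abcg1, which exports cholesterol to high-density lipoprotein, was at 9.45, 6.45, 6.46, 11.5, 11.4, 10.9 and 13.0 RPKM in calcium-high libraries, against 10.2, 8.42, 6.91, 13.7, 12.9, 12.8 and 13.5 RPKM in calcium-low libraries. It was lower in all 7 pairs, the 1 member of the 24 to be so, while 3.02% of the 9921 tested genes were lower in all 7 pairs and 2.49% higher. The difference was small and did not pass (log2 fold change -0.17 ± 0.08 with the block, limma adjusted p = 0.366). In replicates 4 to 7 alone it passed on reads, as lower (log2 fold change -0.29, limma-voom adjusted p = 0.0183). Abca1 and Abcg1, which act in one efflux route and are both targets of liver X receptors, thus had estimates of opposite sign, and this contrast was not tested.

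Abca2, a lysosomal lipid transporter, had the highest mean over all 14 libraries, although in replicates 1 to 3 it averaged 13.7 RPKM and Abce1 16.6 RPKM. It was at 15.1, 12.3, 13.4, 23.4, 21.2, 21.8 and 20.3 RPKM in calcium-high libraries, against 16.9, 14.4, 10.1, 24.3, 24.0, 25.3 and 21.3 RPKM in calcium-low libraries. It was lower in 6 of 7 pairs by small amounts (log2 fold change -0.07 ± 0.09 with the block, limma adjusted p = 0.804). Abca3, which loads surfactant lipids into lamellar bodies, was at 8.07 ± 1.62 against 7.25 ± 0.938 RPKM, and Abca7 at 10.4 ± 2.75 against 10.1 ± 2.42 RPKM. Abcb4, the phosphatidylcholine floppase of bile, was at 1.66 ± 1.02 against 1.54 ± 1.297 RPKM, with its highest value in replicate 3 of each group. Abca5 was chosen after its values were seen. It averaged 0.886 ± 0.239 against 0.693 ± 0.342 RPKM and passed on reads without the block (log2 fold change 0.82 ± 0.20, adjusted p = 0.0209, limma-voom), and not with it (adjusted p = 0.0538) nor without library weights (adjusted p = 0.408). Leaving out calcium-high replicate 6 or 7, or calcium-low replicate 4, 5, 6 or 7, also ended the call of Abca5 (limma-voom adjusted p from 0.0501 to 0.147).

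None of the members listed as mitochondrial, peroxisomal or lysosomal passed on RPKM or on reads, with or without the block. Abca2 and Abca5 were listed with the lipid transporters and are not among them. Abcb10, which acts in haem synthesis, was at 3.17 ± 0.529 against 3.18 ± 0.361 RPKM, and Abcb8 at 5.61 ± 1.18 against 5.32 ± 1.08 RPKM. Abcb6 was at 1.19 ± 0.322 against 1.13 ± 0.531 RPKM, but 52.1% of its 31-base words occur in the overlapping gene Gm29253. Abcd3, a transporter of the peroxisomal membrane, was at 1.98 ± 0.627 against 2.44 ± 1.16 RPKM. Abcd4, which moves vitamin B12 out of lysosomes, was at 1.92 ± 0.469 against 2.10 ± 0.464 RPKM.

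Of the members without membrane domains, Abce1, the factor that splits ribosomes after translation, was at 12.7, 12.7, 19.2, 10.8, 11.4, 10.4 and 9.99 RPKM in calcium-high libraries, against 15.6, 13.2, 26.0, 9.85, 10.2, 9.77 and 10.7 RPKM in calcium-low libraries. Replicate 3 was highest in both groups, and the groups overlapped (log2 fold change -0.07 ± 0.09 with the block, limma adjusted p = 0.802). Abcf2 was at 4.29, 4.34, 4.98, 5.08, 6.76, 5.61 and 4.80 RPKM in calcium-high libraries, against 9.02, 4.52, 7.23, 5.43, 5.03, 5.48 and 4.97 RPKM in calcium-low libraries. Calcium-low replicates 1 and 3 were the high ones, and it did not pass (log2 fold change -0.17 ± 0.13 with the block, limma adjusted p = 0.638). The ribosome-associated Abcf1_1, a label with a copy suffix, was at 11.1 ± 2.85 against 12.2 ± 1.95 RPKM and Abcf3 at 4.76 ± 0.804 against 4.33 ± 0.395 RPKM.

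Counted over the whole family, 0 of 24 tested members passed by limma on log2(RPKM + 1) without the block, as did 0 of 9921 tested genes (0%). At an unadjusted p under 0.05 there were 1 of 24 members and 669 of 9921 genes. With the block 0 of 24 members passed and 0.917% of genes, and 2 members (Abcg3 and Abca1, 8.33%) were at an unadjusted p under 0.05, against 13.9% of genes. On reads, limma-voom called 4 of 33 members (12.1%), all higher, against 6.14% of 12824 genes. The 4 were Abcb1a, Abcg3, Abcc5 and Abca5. With the block it called 5 (15.2%), all higher, against 8.16% of genes, and these were Abcb1a, Abcg3, Abcg2, Abca1 and Abcc5. Without library weights it called Abcb1a alone without the block (0.468% of genes) and 4 members with it (6.29% of genes). Of the 9 efflux pumps above 0, 8 entered the comparison on reads, of which 2 passed without the block (Abcb1a and Abcc5) and 3 with it (also Abcg2). In replicates 4 to 7 alone 6 of 33 members passed on reads, against 9.54% of genes, and 4 of 24 on log2(RPKM + 1), against 8.52% of genes. In replicates 1 to 3 alone 0 of 33 members and 0 genes passed on reads (limma-voom).

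The 9 members that entered on reads alone were below 1 RPKM. Besides Abcb1a, Abca5 and Abcc3 these were Abca4, the retinal transporter (0.777 ± 0.164 against 0.642 ± 0.190 RPKM), Abcb9, a lysosomal peptide transporter (0.260 ± 0.0946 against 0.169 ± 0.0773 RPKM), Abcd2, Abcc9, Abcg4 and Abca13, and none of these 6 passed. Abcb9 was higher in 6 of 7 pairs (log2 fold change 0.65 ± 0.29 with the block, limma-voom adjusted p = 0.201).

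On log2(RPKM + 1) 14 of 24 members were higher (58.3%) and 10 lower, while 42.2% of all tested genes were higher, with a median log2 fold change of 0.02 against -0.03 over all tested genes. On reads 21 of 33 members were higher (63.6%) and 60.2% of all genes, with medians of 0.08 and 0.06. The median of all genes itself shifted between library sets, to -0.20 in replicates 1 to 3 alone and 0.11 in replicates 4 to 7 alone (limma on log2(RPKM + 1)). The members' medians were -0.08 and 0.08 there.

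**Figure D4:**
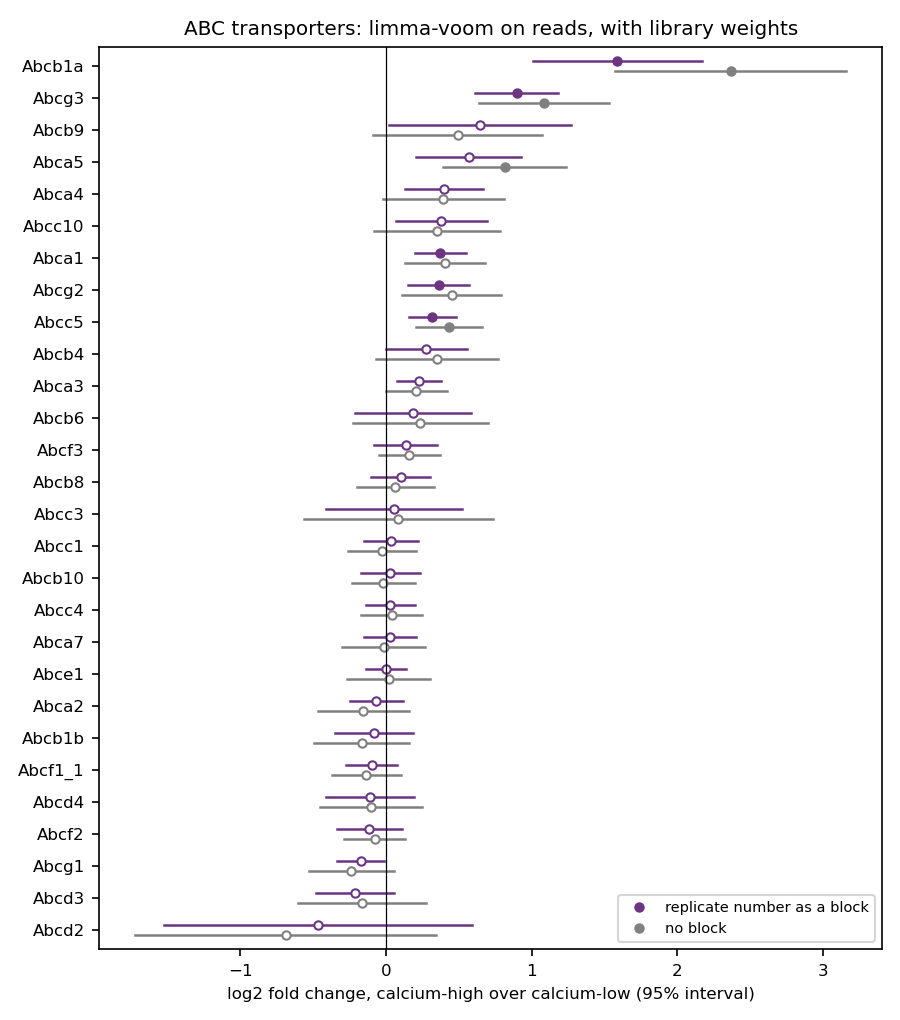
Log2 fold change on reads of 28 members with a read in every library and a mean of 10 reads or more, calcium-high over calcium-low, with 95% intervals; upper points are from the fit with the replicate block and lower points without it, and filled points have an adjusted p under 0.05. Abcb1a (1.59 with the block, 2.37 without) and Abcg3 (0.90 and 1.08) are filled in both fits and lie farthest to the right.

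More genes differed between sets of replicates than between calcium groups. Replicates 4 to 7 against replicates 1 to 3 gave 14 of 24 members at a limma adjusted p under 0.05, while 48.8% of all tested genes were called, so the members' share of 58.3% is read against that. Of the 14, 9 were higher in replicates 4 to 7, among them Abca2 (20.3 to 25.3 RPKM, against 10.1 to 16.9 RPKM in replicates 1 to 3) and Abcg1 (10.9 to 13.7 against 6.45 to 10.2 RPKM). The 5 that were lower included Abcd3 (1.27 to 2.26 against 2.22 to 4.36 RPKM), Abce1, Abcg2 and Abcg3. The sets follow the numbering, and the labels state no separate preparation. They differed in depth, with 8280683 to 10296224 reads in listed genes per library of replicates 4 to 7, against 3575219 to 7387721 in replicates 1 to 3. They also differed in Y-linked reads, with 1298 to 1638 in replicates 1 and 2 and 0 to 4 in replicates 3 to 7. For Abcg2 and Abcg3, the contrast by set and the contrast by Y-linked reads given above thus differ only in where replicate 3 falls. In calcium-high and calcium-low replicate 3, Abcg3 was at 3.99 and 4.24 RPKM, within its 1.89 to 7.78 RPKM in replicates 4 to 7. Abcg2 was at 5.60 and 7.15 RPKM there, against 3.92 to 7.01 RPKM in replicates 4 to 7. The part of depth or sex in these differences was not tested.

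**Figure D5:**
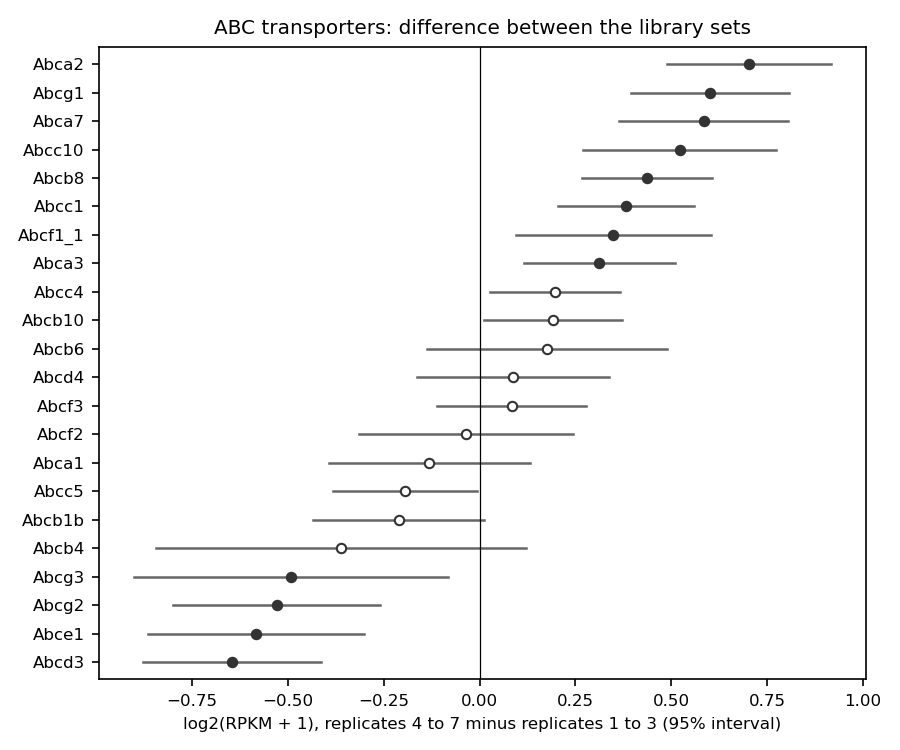
Difference in log2(RPKM + 1) between replicates 4 to 7 and replicates 1 to 3 of both groups for 22 tested members, with 95% intervals; filled points have an adjusted p under 0.05. Abca2 (0.70) and Abcg1 (0.60) are the highest of those shown and Abcd3 (-0.65) is the lowest.

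Calcium-low replicate 3 stood apart. It held 753 RPKM summed over 6 listed neutrophil markers, against 1.28 to 27.8 RPKM in calcium-high and 0.386 to 1.5 RPKM in calcium-low replicates 1, 2 and 4 to 7. Its erythroid markers summed to 334 RPKM, against 114 to 225 RPKM in calcium-high and 129 to 171 RPKM in those 6 calcium-low libraries. The library also held the highest values of Abce1 and Abcb4, and of 2 members chosen after their values were seen, Abcg4 (1.16 RPKM, 0 to 0.224 RPKM elsewhere) and Abca13 (0.361 RPKM, 0 to 0.0222 RPKM elsewhere). Abcb1a and Abcg3 passed on reads without that library, and their values in it (0.374 and 4.24 RPKM) lay within the range of the other calcium-low libraries.

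All 10 HSC markers were detected, and their sum was 168 to 341 RPKM in calcium-high against 162 to 255 RPKM in calcium-low libraries, lowest in replicate 3 of each group. Over all libraries the sums overlapped. Without replicate 3, left out here with its values known, they did not, at 270 to 341 RPKM in calcium-high against 189 to 255 RPKM in calcium-low libraries. The share of all genes that separate in this way was not counted. The part of HSC marker levels in the values of Abcb1a, Abcg3 and Abcg2 was not tested. Markers of T and NK cells, which are also known to express P-glycoprotein, summed to 3.46 to 18.1 RPKM in calcium-high against 11.6 to 33.0 RPKM in calcium-low libraries, with Cd3e at 0 in every library. Their part in the level of Abcb1a was not tested. B cell markers summed to 2.90 to 5.95 against 3.25 to 6.27 RPKM with Ms4a1 at 0 in every library, macrophage markers to 1.09 to 6.03 against 1.70 to 3.09 RPKM, and megakaryocyte markers to 9.70 to 19.7 against 12.01 to 20.04 RPKM (2 of 5 listed). Stromal and endothelial markers summed to 5.66 to 8.13 against 5.66 to 8.79 RPKM.

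Of 18 regulators known to act on ABC genes, 2 (Rxrb and Ppard) were not analysed here. The other 16 were all above 0, and 12 had a mean of 10 reads or more. On reads 4 passed, all higher, with and without the block: Ahr, Epas1, Foxo1 and Rxra. Of all genes 6.14% passed without the block and 8.16% with it. Ahr, the aryl hydrocarbon receptor, was at 2.20 ± 0.604 RPKM in calcium-high against 1.38 ± 0.388 RPKM in calcium-low libraries, higher in 7 of 7 pairs (limma-voom with the block, log2 fold change 0.68, adjusted p = 0.00398). Epas1, a hypoxia-inducible factor, was at 0.642 ± 0.343 against 0.198 ± 0.115 RPKM, also higher in 7 of 7 pairs (log2 fold change 1.75, adjusted p = 0.00819). Over the 9921 genes tested on RPKM, which include Ahr but not Epas1, 2.49% were higher in every pair. Foxo1 was at 2.93 ± 0.477 against 2.35 ± 0.752 RPKM, higher in only 5 of 7 pairs. Rxra, the partner of the liver X receptors, was at 1.69 ± 0.553 against 1.23 ± 0.297 RPKM, higher in only 4 of 7 pairs. The adjusted p of Foxo1 and Rxra was 0.0341 and 0.0448 (limma-voom with the block). By limma on log2(RPKM + 1) 0 of 10 tested regulators passed with or without the block, and the median log2 fold change was 0.05 against -0.03 over all genes.

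Carriers of organic ions and nucleosides, which share substrates with ABC pumps, gave 2 of 13 members lower on reads and 0 higher, with and without the block, while 1.48% of all genes were called lower without the block and 2.39% with it. Slc22a3, an organic cation transporter, was at 7.85 ± 2.92 RPKM in calcium-high against 11.8 ± 3.39 RPKM in calcium-low libraries, lower in 7 of 7 pairs (limma on log2(RPKM + 1) with the block, log2 fold change -0.55, adjusted p = 0.0364). Slco3a1, an organic anion transporter, was at 3.31 ± 0.406 against 4.90 ± 0.809 RPKM, lower in 7 of 7 pairs (log2 fold change -0.45, adjusted p = 0.0439). Without the block their limma adjusted p was 0.588 and 0.152. Slc22a17, another carrier of this list, went the other way in 7 of 7 pairs. It was at 2.37 ± 0.737 RPKM in calcium-high against 1.75 ± 0.663 RPKM in calcium-low libraries. It did not pass (limma on log2(RPKM + 1) with the block, log2 fold change 0.30, adjusted p = 0.197). Over the 9921 genes tested on RPKM, these carriers included, 3.02% were lower and 2.49% higher in every pair. Over the 10 tested carriers 4 were higher and 6 lower, with a median of -0.03. Of the ABC proteins named outside the Abc stem, Cftr, a chloride channel, was at 0.222 ± 0.102 against 0.0781 ± 0.0709 RPKM and passed on reads without the block (limma-voom adjusted p = 0.0145) and not with it (adjusted p = 0.0805). Tap1, Tap2 and Tapbp were not analysed here.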

How the data were processed

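Total RNA of 14 libraries was compared, 7 per group. The deposited values were RPKM computed by the authors, 1 file per library. The unit was read from the values, since the file headers name none. Among the names in the submitters' processing notes are GRCm38, mm10 and edgeR, without their roles; the aligner and annotation are not given in the sources used here. Within a gene, values were multiples of what 1 read is worth, from which reads were recovered: all 9848 tested genes above 0 in all libraries came out whole within 0.02 reads, and 0 of 500 jittered genes did. Recovered reads in listed genes were 3575219 to 10296224 per library. Of the labels, 23 had become serial numbers and were left out.

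Calcium-high minus calcium-low was fitted by limma 3.58.1 in R 4.3.3 (trend option) to log2(RPKM + 1), for the 9921 genes that averaged at least 1 RPKM. Genes were called at a Benjamini-Hochberg adjusted p under 0.05, always over all tested genes. Members below that mean were taken from the same fit with no filter. Limma-voom with library quality weights on recovered reads, for the 12824 genes averaging at least 10 reads, was chosen after seeing the data. Unless median-of-ratios scaling is named, its library totals were the recovered reads in listed genes. These were 25.0% to 32.5% of the totals behind the RPKM, so the 2 scales differ in normalization. The other alternatives were scaling, pseudocounts, filters, library sets and left-out libraries. Limma and limma-voom with library weights, each with and without the block, were tested on simulated data. The deviations of same-numbered libraries from their group means correlated at 0.384 to 0.715 in all 7 pairs, which meets the rule that every pair exceed 0.1, so the numbers were taken to pair the libraries. The library of the same number was the best-correlated partner for only 5 of 14 libraries, so the pairing rests on that rule alone. The rule cannot tell pairing from the difference between replicates 1 to 3 and 4 to 7, in which 48.8% of tested genes were called. Libraries of one set can correlate without being paired, so counts of pairs and fits with the block share this limit. The labels do not say what the numbers mean.

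Members and lists were chosen with earlier results of these data known. Members with a mean of 1 RPKM or more were named, except 2 that are not reported here; these enter the counts over the family. Values in every library were given for efflux pumps with a mean of 0.5 RPKM or more, for the 6 members with the smallest p without and with the block, and for the 3 of highest level. Coordinates, overlaps and shared 31-base words are from GENCODE (GRCm38). Tables were made with Python 3.11.15, numpy 2.4.6 and pandas 2.3.3, and figures with matplotlib 3.10.9.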

Additional observations from a re-analysis of the deposited data

Results flagged for a closer look

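Of 48 groups of 7 libraries looked at (24 members in each calcium group), 5 held a library whose gap to its nearest neighbour was above Dixon's 95% critical value. These 24 members include Abcb1a and are not the same 24 as those tested on RPKM. Chance flags about 1 in 20 groups. In calcium-high replicate 3, Abcb4 was at 3.89 RPKM (next highest 1.75 RPKM) and Abce1 at 19.2 RPKM (next highest 12.7 RPKM). In calcium-low replicate 3, Abcb4 was at 4.43 RPKM (next highest 1.56 RPKM) and Abce1 at 26.0 RPKM (next highest 15.6 RPKM). Abcb1a was at 1.51 RPKM in calcium-high replicate 2, with the next highest at 0.887 RPKM. Neutrophil and erythroid markers were high in calcium-low replicate 3, as given above, and their part in these values was not tested.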

How the results depend on the processing

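The depth, the sets of replicates and the unknown meaning of the replicate numbers limit these results, and the cause of each change below was not tested. Calls on reads rest on a fit chosen after seeing the data.

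Of 24 members, 0 passed by limma on log2(RPKM + 1), and 0 with the replicate block. Other counts of members were 1 with median-of-ratios scaling and the replicate block, 2 by limma-voom with library weights (4 with the block), 4 in replicates 4 to 7 alone (2 with the block), and 0 to 1 when libraries or pairs were left out. Of all tested genes 0 passed, against 91 with the replicate block, 4 with median-of-ratios scaling (328 with the block), 1 without a filter, 700 by limma-voom (839 with the block), 831 in replicates 4 to 7 alone (764 with the block), 122 without both libraries of replicate 3, and 0 to 313 with libraries or pairs left out. On reads, 4 members and 787 genes passed, against 1 and 60 without library weights, 0 and 0 in replicates 1 to 3 alone, and 6 and 1223 in replicates 4 to 7 alone. With libraries left out there were 2 to 5 members and 296 to 1033 genes.

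Some small log2 fold changes of limma on log2(RPKM + 1) changed sign. Values are on that scale unless reads or limma-voom are named. In replicates 1 to 3 alone these were Abca2 (0.0041), Abca3 (-0.081), Abca5 (-0.077), Abca7 (-0.053), Abcb1b (0.0080), Abcb4 (-0.14), Abcc4 (-0.094), Abcc5 (-0.023), Abcf3 (-0.099) and Abcg2 (-0.088). On reads in these replicates (limma-voom), Abca2 was at 0.098, Abca3 at 0.24, Abca5 at 0.23, Abca7 at 0.060 and Abcb1b at 0.26. There Abcb4 was at -0.029, Abcc4 at 0.049, Abcc5 at 0.21, Abcf3 at 0.12 and Abcg2 at 0.23. In replicates 4 to 7 alone, with and without the block, the changes of sign were Abcb10 (0.047), Abce1 (0.065), Abcf1_1 (0.036) and Abcf2 (0.068). By limma-voom with library weights they were Abca7 (-0.021), Abcc1 (-0.037) and Abce1 (0.010), and with the block Abcb10 (0.029) and Abce1 (0.0034). Without both libraries of replicate 3, Abca7 was at -0.0093 and Abcc1 at -0.03. With libraries left out the ranges were -0.21 to 0.014 for Abca2, -0.088 to 0.11 for Abca7, -0.045 to 0.049 for Abcb10, -0.051 to 0.31 for Abcb4, -0.0068 to 0.12 for Abcb8, -0.060 to 0.081 for Abcc1, -0.033 to 0.046 for Abcc4 and -0.17 to 0.091 for Abce1.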
